A study of Homo sapiens with 12 samples.

Results

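Genes of the contractile actin cytoskeleton were followed in a breast cancer cell line labelled as having the histone demethylase LSD2 knocked down or overexpressed. The set was a list of 51 genes for actins, myosins, tropomyosins and the proteins that bundle, cap, sever, nucleate and anchor actin filaments or signal to them. A gene was read from the brightest of its probe sets that name no other gene, and 46 of the 51 were measured among 11963 genes. The probe sets of the cytoplasmic actin ACTG1 name several genes, and TPM3, FLNA, FLNC and CFL2 were not named by any probe set used here. The cells were labelled MDA-MB-231, a human breast cancer line without hormone receptors, and total RNA was hybridised to Affymetrix arrays. There were 4 groups of 3 biological replicates: cells stably transfected with LSD2 shRNA, with a scramble shRNA as its control, with an LSD2/eGFP/Flag vector, and with an eGFP/Flag vector as its control. All 4 groups shared the label of the line and, per the labels' protocols, the addition of the antibiotic G-418 against untransfected cells. Whether each transfected line was cloned or kept as a pool is not in the labels. The p-values therefore measure the spread between replicates that may come from 1 line per group, and the construct and the line cannot be told apart. KDM1B, which encodes LSD2, was named by no probe set used here, so the target itself did not check the labels. Knockdown and overexpression are used below as names of the labelled groups.

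Stress fibers are bundles of actin filaments along which bipolar filaments of nonmuscle myosin II pull. Tropomyosins and calponins decorate the filaments, alpha-actinins crosslink them, and the small GTPase RhoA drives the bundles through the kinases ROCK1 and ROCK2, which raise phosphorylation of the myosin light chain, and through formins, which elongate filaments. Thymosins, profilins and cofilins set the pool of actin monomers, the Arp2/3 complex nucleates branched filaments, and ezrin, radixin and moesin tie actin to the plasma membrane. MDA-MB-231 cells are known for a spindle shape, strong migration and prominent actin structures.

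Values are deposited log2 intensities, in which 1 unit is a 2-fold difference, and a level is not set against that of another gene. The shRNA arrays had medians of 6.65 to 6.71 and minima of 1.94 to 2.08. In the vector arrays these were 7.03 to 7.18 and 3.03 to 3.17. Both sets of arrays were treated as normalized separately, so levels were compared only within the shRNA arrays and within the vector arrays. The differences of both comparisons were also tested against each other, although their scales need not be alike. The 3 LSD2/eGFP/Flag arrays stood apart: they correlated with the eGFP/Flag arrays at 0.904 to 0.908, while LSD2 shRNA and scramble arrays correlated at 0.991 to 0.994 and replicates of a group at 0.996 to 0.998. Of 9 measured markers of MDA-MB-231 cells, 9 fell in the LSD2/eGFP/Flag arrays, with CD44 at percentile 4.3 and ANXA1 at percentile 11.5 of the genes of an array, against 96.1 and 98.8 with eGFP/Flag. The mean level of these markers was 6.73 to 7.01 in the LSD2/eGFP/Flag arrays, against 12.61 to 12.67 in the eGFP/Flag arrays. In the shRNA arrays it was 11.77 to 11.81 with LSD2 shRNA, against 11.71 to 11.77 with scramble shRNA. The LSD2/eGFP/Flag arrays thus went against their label as MDA-MB-231 cells, every result of the vector comparison rests on them, and the part of this shift in those results was not tested. In bulk RNA, fewer cells of a type and less RNA per cell cannot be told apart.

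In the LSD2/eGFP/Flag cells, 36 of the 46 measured genes passed the test (limma, adjusted p under 0.05), 10 of which rose and 26 of which fell. This was 78.3%, beside 57.0% of all genes. The falling genes were 56.5% of those measured, beside 26.1% of all genes, and the rising ones 21.7%, beside 30.9%. The median difference was -0.41, beside 0.01 over all genes. Of the 46 genes 16 differed by at least 1 log2 unit and passed, beside 2184 of all 11963 genes, 18.3%. The 3 arrays of one group did not overlap the 3 of the other for 36 genes, 78.3%, beside 61.1% of all genes. With the dimmest 25% of genes left out, 34 of 43 passed, 79.1% beside 68.5% of the remaining genes. When the arrays were shifted to equal medians, which moved every difference of this comparison by about -0.14, 6 genes rose and 30 fell. Under that shift the rising share of the calls was 16.7% in place of 27.8% for these genes, and 40.5% in place of 54.2% for all genes.

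In the LSD2 shRNA cells, 6 of the 46 passed, which was 13.0% beside 10.5% of all genes and so near the background. The myosins MYO6 and MYO10 rose, and MYH10, MYL9, MYO1C and the tropomyosin TPM1 fell. All but TPM1 are motors or a motor's light chain. Of the 10 genes for myosins, their light chains and the light chain kinase 5 passed, and 1 of the other 36 did. Of these myosin genes, MYH10 and MYO1C lie on the short arm of chromosome 17, where many measured genes fell in the knockdown. The calls of MYO6 and MYO10 were lost with the mean of all probe sets. Of 14 other measured myosins and light chains 1 passed, 7.14%. The median difference of the 46 genes was -0.08, beside -0.01 over all genes. The falling genes were 8.7% of those measured, beside 5.53% of all genes. Of the 46 genes 2, MYH10 and MYL9, passed with at least 1 log2 unit, beside 63 of all 11963 genes, 0.527%. The arrays of the groups did not overlap for 19 genes, 41.3%, beside 28.3% of all genes. With the dimmest 25% of genes left out, 10 of 43 passed, 23.3% beside 15.1% of the remaining genes. Fitted on the shRNA arrays alone, without the arrays that stood apart, the same 6 passed and 1 more did.

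**Figure D1:**
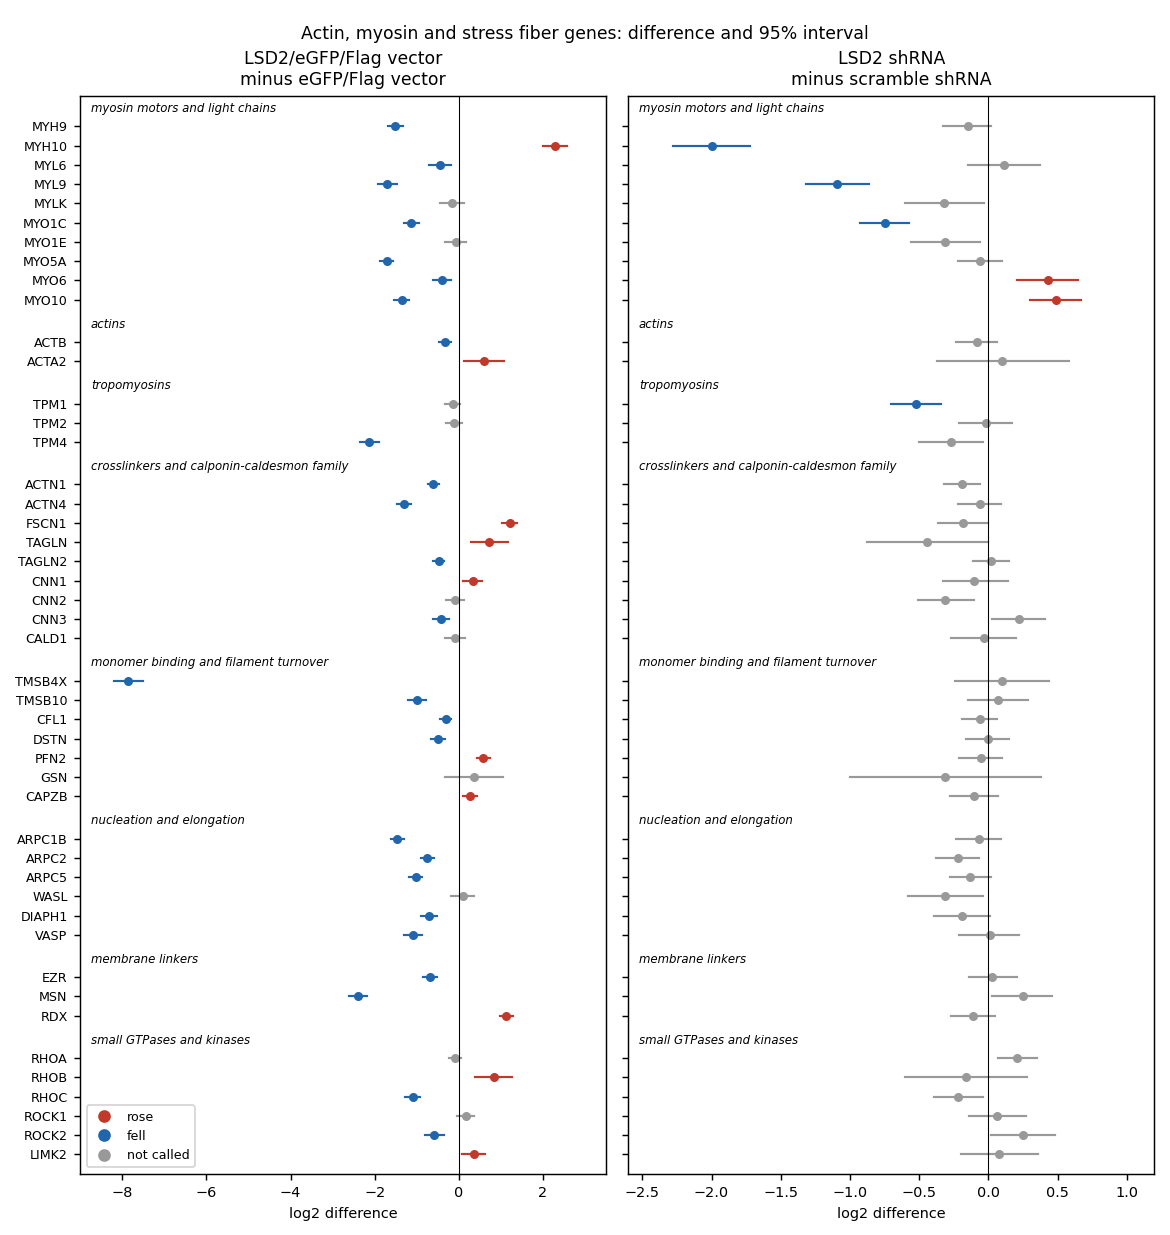
Log2 difference (horizontal axis) of the 46 measured genes, grouped by role, for LSD2/eGFP/Flag minus eGFP/Flag (left) and LSD2 shRNA minus scramble shRNA (right, on its own scale), with points for the fitted difference, bars for its 95% interval and colour for the call. On the left 26 genes fell and 10 rose, with TMSB4X lowest at -7.86, and on the right 4 fell and 2 rose.

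Promoter windows from RefSeq (GRCh38.p14), reaching from 250 bases before to 50 bases after a start site, were found for 45 of the 51 genes. They were searched on both strands for the CArG box, the site of serum response factor, which governs many actin genes, for the TEAD site GGAATG, and for the AP-1 site TGANTCA. A CArG box stood in 8 of the 75 windows of these genes, 10.7%, beside 1.29% of all 35116 windows. The genes were ROCK2, MYLK, ACTN1, MYO1E, ACTG1, CNN2, TPM4 and FLNA, and 6 of them were measured. Of those 6, TPM4, ACTN1 and ROCK2 fell in LSD2/eGFP/Flag cells, MYLK, MYO1E and CNN2 did not pass, and none passed with LSD2 shRNA. With LSD2/eGFP/Flag 56.5% of the measured set and 26.1% of all genes fell, and with LSD2 shRNA 10.5% of all genes passed. A link between motif and call was not tested. GGAATG stood in 13.3% of their windows, beside 14.0% of all, and TGANTCA in 9.33%, beside 7.71%. A match is a description of the letters, not a site in these cells. Shown here are a pair of genes whose window holds a CArG box, of which TPM4 fell and CNN2 did not pass, and the genes with the largest rise and the largest fall. The capitals mark the CArG box in TPM4 and CNN2 and GGAATG, read on the opposite strand, in MYH10. The TMSB4X window held none of the motifs.
TPM4, chr19:16067288-16067587, plus strand: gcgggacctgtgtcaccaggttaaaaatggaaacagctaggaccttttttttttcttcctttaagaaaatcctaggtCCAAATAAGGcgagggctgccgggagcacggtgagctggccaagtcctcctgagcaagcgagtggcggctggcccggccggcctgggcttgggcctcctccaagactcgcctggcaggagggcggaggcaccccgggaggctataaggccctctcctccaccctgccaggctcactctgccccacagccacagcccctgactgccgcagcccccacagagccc
CNN2, chr19:1026358-1026657, plus strand: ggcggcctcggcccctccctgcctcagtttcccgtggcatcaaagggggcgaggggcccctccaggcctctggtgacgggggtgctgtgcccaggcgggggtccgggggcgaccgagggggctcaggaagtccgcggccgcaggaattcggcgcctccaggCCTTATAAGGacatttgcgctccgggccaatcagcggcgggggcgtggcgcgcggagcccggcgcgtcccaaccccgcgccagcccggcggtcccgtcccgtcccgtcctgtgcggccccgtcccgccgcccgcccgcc
MYH10, chr17:8630676-8630975, minus strand: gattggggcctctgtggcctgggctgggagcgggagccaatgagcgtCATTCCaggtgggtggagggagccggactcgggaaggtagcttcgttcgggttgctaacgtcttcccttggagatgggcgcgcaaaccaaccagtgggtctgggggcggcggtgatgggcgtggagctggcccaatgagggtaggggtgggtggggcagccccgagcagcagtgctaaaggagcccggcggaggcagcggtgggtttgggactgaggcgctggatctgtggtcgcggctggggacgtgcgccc
TMSB4X, chrX:12974860-12975159, plus strand: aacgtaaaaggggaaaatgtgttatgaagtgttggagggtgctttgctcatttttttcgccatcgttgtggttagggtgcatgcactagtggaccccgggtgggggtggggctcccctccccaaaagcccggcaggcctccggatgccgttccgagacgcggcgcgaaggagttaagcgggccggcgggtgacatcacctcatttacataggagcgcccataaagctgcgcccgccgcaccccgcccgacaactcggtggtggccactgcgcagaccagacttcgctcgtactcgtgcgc
The CArG box begins 173 bases before the start site in TPM4, in 1 of its 3 windows, and 89 bases before it in CNN2. The match in MYH10 begins 203 bases before the start site.

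Of the 10 genes for myosins, their light chains and the light chain kinase, 7 fell, 1 rose and 2 did not pass in LSD2/eGFP/Flag cells. The falls were 70.0%, beside 26.1% of all genes. MYH10, the heavy chain of nonmuscle myosin IIB, was the one that rose. Its level was 12.78, 12.92 and 12.90 in the LSD2/eGFP/Flag arrays, against 10.70, 10.29 and 10.73 in the eGFP/Flag arrays. With LSD2 shRNA it was 8.18, 8.31 and 8.07, against 10.10, 10.45 and 10.02 with scramble shRNA. MYH10 was thus higher in every LSD2/eGFP/Flag array and lower in every LSD2 shRNA array than in any array of its control. The difference was 2.29 ± 0.13 (SE; adjusted p = 3.5e-09), a 4.89-fold rise, with LSD2/eGFP/Flag, and -2.00 ± 0.13 (adjusted p = 2.8e-06), a 4.01-fold fall, with LSD2 shRNA. The test of the difference between these effects gave 4.29 ± 0.18 (adjusted p = 3.8e-10). Of the 46 genes, MYH10 alone fell with LSD2 shRNA and rose with LSD2/eGFP/Flag. Of its 10 nearest measured genes on chromosome 17, RANGRF, at -0.83 and 1.22, and PFAS, at -0.30 and 0.79, had the same calls. CTC1 and NDEL1 fell in both, STX8 fell with LSD2 shRNA alone, and the other neighbours passed in neither. Further along the short arm many genes also had this pair of calls, among them NXN, MRM3, CTNS and ELP5. Others, such as ABR and TIMM22, fell in both. The pair of calls was thus not particular to MYH10 on this arm. The window of MYH10 is the third of those printed above.

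MYH9, the heavy chain of nonmuscle myosin IIA, which shares the stress fibers with MYH10, fell in LSD2/eGFP/Flag cells. It read 9.14, 9.44 and 9.24 there, against 10.85, 10.72 and 10.81 in eGFP/Flag cells. The lowest control array lay above the highest overexpressing one, and the difference was -1.51 ± 0.08 (adjusted p = 1.9e-09). With LSD2 shRNA the level was 10.14, 10.22 and 10.22, against 10.38, 10.37 and 10.29 with scramble shRNA, a difference of -0.15 ± 0.08 that did not pass (adjusted p = 0.28). The paired heavy chains thus differed in their direction with LSD2/eGFP/Flag, MYH10 higher and MYH9 lower.

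MYL9, a regulatory light chain of myosin II, fell in both comparisons. It was 5.09, 5.17 and 5.03 in LSD2/eGFP/Flag cells, against 6.84, 6.57 and 6.96 in eGFP/Flag cells, and 8.03, 8.32 and 8.05 with LSD2 shRNA, against 9.32, 9.21 and 9.12 with scramble shRNA. Neither pair of groups overlapped. The differences were -1.70 ± 0.11 (adjusted p = 1.1e-08) and -1.09 ± 0.11 (adjusted p = 6.7e-05), and they differed from each other by -0.61 ± 0.15 (adjusted p = 0.0041). In the LSD2/eGFP/Flag arrays MYL9 stood at the percentile 17.4 of all genes, where values carry little order. The essential light chain MYL6 fell by 0.44 with LSD2/eGFP/Flag (adjusted p = 0.0067) and differed by 0.11 with LSD2 shRNA (adjusted p = 0.67). MYLK, the kinase that phosphorylates the regulatory light chain, did not pass in either, at -0.16 ± 0.13 and -0.32 ± 0.13.

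The unconventional myosins carry membranes and cargo along actin or link both. MYO1C, a class I motor that tethers membrane to actin, fell in both comparisons as MYL9 did. Its level was 10.05, 9.98 and 9.91 with LSD2/eGFP/Flag, against 11.04, 11.07 and 11.24 with eGFP/Flag, and 9.77, 9.87 and 9.64 with LSD2 shRNA, against 10.61, 10.47 and 10.44 with scramble shRNA. Every array of either LSD2 group was below all arrays of its control. The differences were -1.13 ± 0.08 (adjusted p = 5.4e-08) and -0.75 ± 0.08 (adjusted p = 1.4e-04). MYO10, the motor of filopodial tips, had opposite calls, of which the one in the knockdown rests on its brightest probe set: it was lost with the mean of all probe sets, at 0.24 (adjusted p = 0.5). It was 10.04, 9.90 and 9.87 with LSD2/eGFP/Flag, against 11.31, 11.31 and 11.28 with eGFP/Flag, a difference of -1.36 ± 0.08 (adjusted p = 9.2e-09). With LSD2 shRNA it was 9.98, 10.01 and 9.95, against 9.60, 9.59 and 9.30 with scramble shRNA, a difference of 0.49 ± 0.08 (adjusted p = 0.0028). The groups did not overlap in either comparison, and the effects differed by -1.85 ± 0.12 (adjusted p = 2.6e-08).

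MYO6, the motor that walks toward the pointed end of the filament and serves endocytosis, showed the same opposite calls with smaller sizes. It was 10.25, 10.26 and 9.99 in LSD2/eGFP/Flag cells, against 10.69, 10.44 and 10.58 in eGFP/Flag cells, a difference of -0.40 ± 0.10 (adjusted p = 0.0037). With LSD2 shRNA it was 8.70, 8.73 and 8.53, against 8.16, 8.37 and 8.13 with scramble shRNA, a difference of 0.43 ± 0.10 (adjusted p = 0.015). The arrays did not overlap, but the rise no longer passed when replicate 1 or 3 of the scramble arrays, or 1 or 2 of the LSD2 shRNA arrays, was left out, with adjusted p of 0.057 to 0.067. MYO5A, a vesicle motor, was 6.40, 6.48 and 6.31 with LSD2/eGFP/Flag, against 8.12, 8.18 and 8.03 with eGFP/Flag. These groups lay far apart relative to their spread, and the fall was -1.72 ± 0.07 (adjusted p = 1.7e-10). With LSD2 shRNA it differed by -0.06 ± 0.07 (adjusted p = 0.72). The class I motor MYO1E passed in neither, at -0.08 ± 0.12 and -0.31 ± 0.12.

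**Figure D2:**
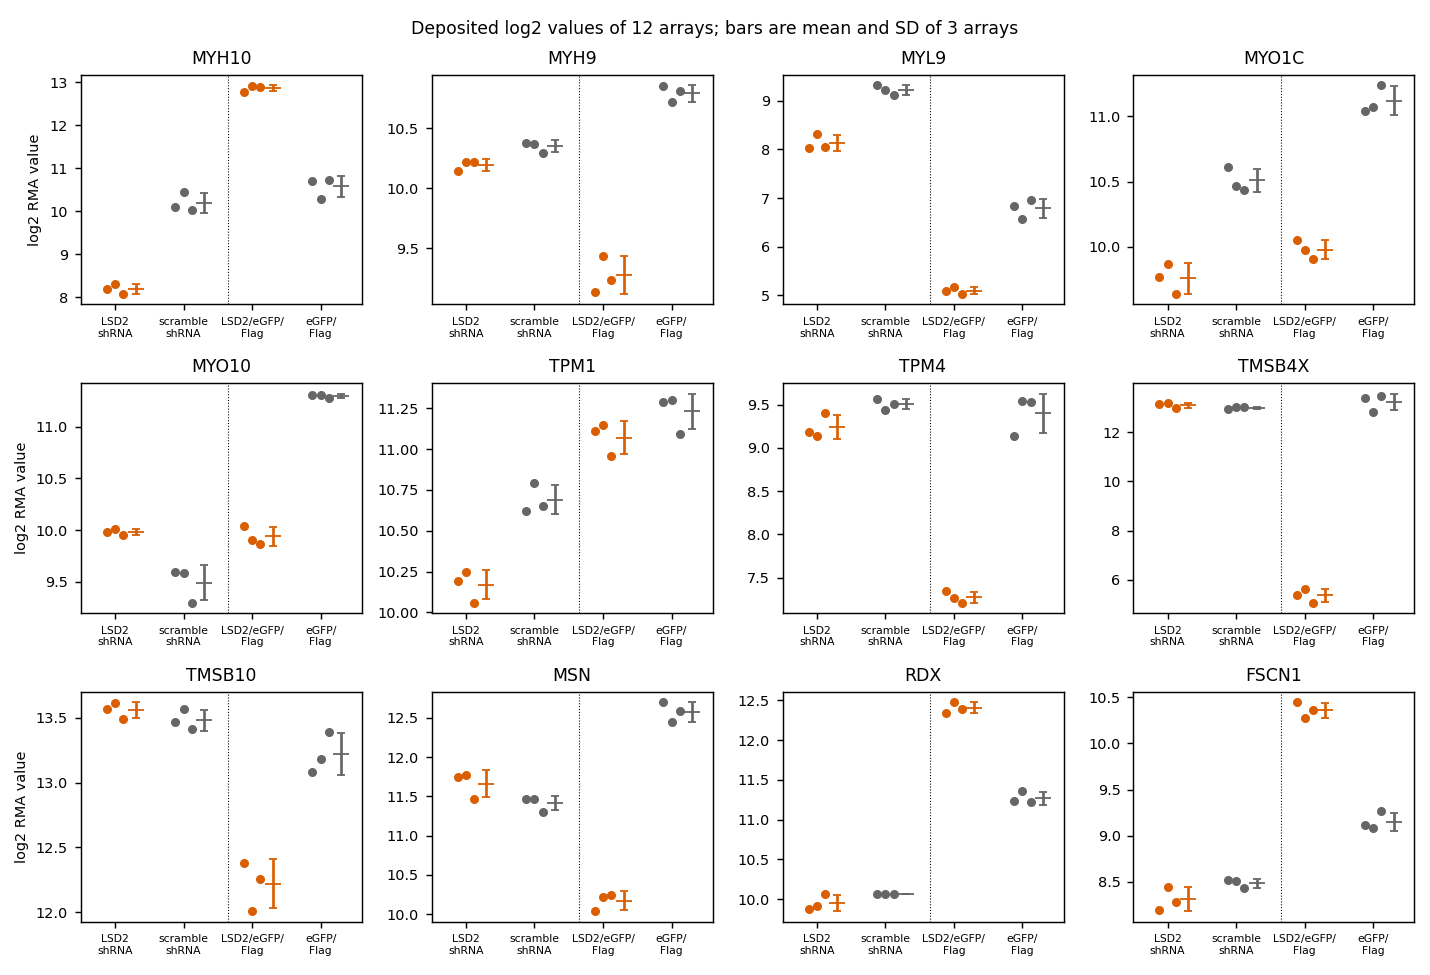
Deposited log2 value (vertical axis, its own range per gene) of 12 genes in each of the 12 arrays, with horizontal and vertical bars for mean and SD of 3 arrays; the dotted line parts the shRNA arrays from the vector arrays, whose levels are not compared. MYH10 is lower with LSD2 shRNA and higher with LSD2/eGFP/Flag than in any control array, MYL9 and MYO1C are lower in both, and TMSB4X is 5.08 to 5.62 with LSD2/eGFP/Flag, against 12.83 to 13.46 with eGFP/Flag.

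MYH10 and MYO1C lie on the short arm of chromosome 17, and in the knockdown their neighbours fell with them. In the order of the 700 measured genes of the chromosome, MYO1C was number 12 and MYH10 number 125 from the end of the short arm. Of the first 125 genes, MYH10 included, 70 fell with LSD2 shRNA, 56.0%, and 0 rose, with a median difference of -0.34. Of the 575 later genes, 45 fell, 7.83%, and 12 rose, with a median of -0.02. The falls did not stop at MYH10: of the next 30 genes 8 fell, 26.7%, and 0 rose, with a median of -0.09, and of the 545 genes beyond those 37 fell, 6.79%, and 12 rose. Among the 10 nearest measured genes, 7 fell and 0 rose around MYO1C, with a median of -0.61, and 5 fell and 0 rose around MYH10, with a median of -0.24. MYH10 at -2.00 was the lowest of the first 125 genes, and MYO1C at -0.75 was within the range of its neighbours. In the vector comparison the same stretch had 44 genes that rose and 29 that fell, the falling ones 23.2% beside 24.2% of the later genes. The stretch was bounded by MYH10 itself after its values were known. What part the neighbourhood had in the falls of MYH10 and MYO1C was not tested, and a difference between lines and an effect of the shRNA cannot be told apart here.

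**Figure D3:**
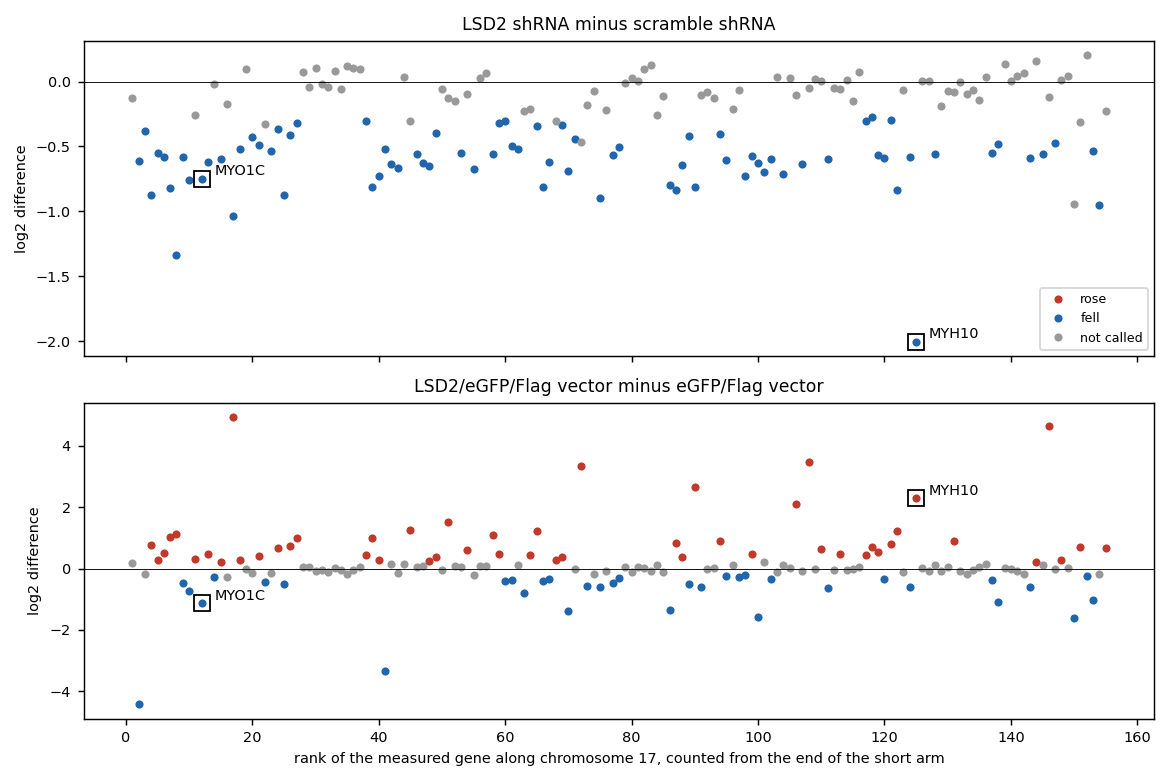
Log2 difference (vertical axis) of measured genes by their rank along chromosome 17 from the end of the short arm, for LSD2 shRNA minus scramble shRNA (top) and LSD2/eGFP/Flag minus eGFP/Flag (bottom, on its own scale), coloured by call, with MYO1C and MYH10 boxed. In the knockdown 70 of the first 125 genes fell and 0 rose, while in the vector comparison 44 rose and 29 fell.

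The other genes of the set that passed in the knockdown lie elsewhere. Around MYL9 on chromosome 20, 3 of the 10 nearest genes fell and 0 rose, and around MYO6 on chromosome 6, 2 rose and 0 fell. Around MYO10 on chromosome 5 and TPM1 on chromosome 15, 0 passed. Over all genes 5.53% fell and 5.0% rose. Of the other measured genes, 43 of 330 fell and 8 rose on chromosome 20, and 40 of 359 fell and 4 rose on chromosome 15. On chromosome 5, 36 of 506 fell and 18 rose, and on chromosome 6, 13 of 672 fell and 40 rose. What part the chromosome had in the calls of these genes was not tested.

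Of the actins, ACTB, the beta-actin that builds most filaments of nonmuscle cells, fell slightly in LSD2/eGFP/Flag cells, by 0.33 on the log2 scale (adjusted p = 7.8e-04). It was 14.05 to 14.14 there, against 14.36 to 14.52 with eGFP/Flag. ACTA2, the smooth muscle actin of contractile stress fibers, was 6.71 to 7.74 with LSD2/eGFP/Flag, against 6.51 to 7.13 with eGFP/Flag. These groups overlapped, and the rise of 0.60 ± 0.22 (adjusted p = 0.03) no longer passed with equal medians or cyclic loess, with the compared groups fitted alone, or when replicate 1 or 2 of eGFP/Flag or replicate 1 or 3 of LSD2/eGFP/Flag was left out. Neither actin passed with LSD2 shRNA, at -0.08 ± 0.07 for ACTB and 0.10 ± 0.22 for ACTA2.

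Among the tropomyosins, which stabilise filaments and decide which motors bind them, TPM4 fell in LSD2/eGFP/Flag cells. It was 7.34, 7.26 and 7.21 there, against 9.14, 9.54 and 9.53 in eGFP/Flag cells. No array came near those of the other group, and the difference was -2.13 ± 0.11 (adjusted p = 9.7e-10), a 4.39-fold fall. Its promoter is the first window above. With LSD2 shRNA it differed by -0.27 ± 0.11 (adjusted p = 0.14). Read from its brightest probe set, TPM1 had the reverse pattern and passed only in the knockdown. It was 10.19, 10.25 and 10.06 with LSD2 shRNA, against 10.62, 10.79 and 10.65 with scramble shRNA, without overlap. The fall was -0.52 ± 0.08 (adjusted p = 0.0017). In LSD2/eGFP/Flag cells it was 11.11, 11.15 and 10.96, against 11.29, 11.30 and 11.09 in eGFP/Flag cells. These groups overlapped, with a difference of -0.15 ± 0.08 (adjusted p = 0.15). The 2 effects on TPM1 differed by 0.37 ± 0.12 (adjusted p = 0.019). TPM2 passed in neither comparison, at -0.12 ± 0.09 and -0.02 ± 0.09. With equal medians TPM1 and TPM2 passed as falls with LSD2/eGFP/Flag, at -0.29 and -0.25.

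Of the 9 measured crosslinkers and calponin relatives, 4 fell and 3 rose with LSD2/eGFP/Flag and 0 passed with LSD2 shRNA. The shares were 44.4% beside 26.1% of all genes for falls and 33.3% beside 30.9% for rises, and 10.5% of all genes passed in the knockdown. ACTN4, an alpha-actinin known from motile cells, was 9.89, 10.09 and 9.96 in LSD2/eGFP/Flag cells, against 11.30, 11.28 and 11.29 in eGFP/Flag cells. All overexpressing arrays were below all control arrays, and the fall was -1.31 ± 0.07 (adjusted p = 3.1e-09). Its relative ACTN1 fell by 0.61 (adjusted p = 1.1e-06). FSCN1, or fascin, which packs filaments into the parallel bundles of filopodia, was 10.45, 10.28 and 10.36 with LSD2/eGFP/Flag, against 9.12, 9.08 and 9.27 with eGFP/Flag. It was higher in every overexpressing array, by 1.21 ± 0.08 (adjusted p = 2.1e-08). TAGLN, transgelin, a smooth muscle marker of stress fibers, was 5.60, 5.16 and 5.44 with LSD2/eGFP/Flag, against 4.79, 4.64 and 4.61 with eGFP/Flag. The groups did not overlap and the rise was 0.72 ± 0.20 (adjusted p = 0.008). It stood at percentile 21.4 of all genes with LSD2/eGFP/Flag and at 11.7 with eGFP/Flag, so both levels were low. TAGLN2 and CNN3, its relatives outside muscle, fell by 0.48 (adjusted p = 9.3e-06) and by 0.42 (adjusted p = 8.8e-04). CNN1, smooth muscle calponin, rose by 0.33 (adjusted p = 0.02), and this call was lost with equal medians, with cyclic loess and when replicate 3 of eGFP/Flag or replicate 1 or 3 of LSD2/eGFP/Flag was left out. CNN2 and CALD1, caldesmon, did not pass, at -0.09 ± 0.10 and -0.10 ± 0.11.

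The largest change of the set was in a gene for a monomer-binding peptide. TMSB4X, thymosin beta 4, which sequesters monomers, was 5.40, 5.62 and 5.08 in LSD2/eGFP/Flag cells, against 13.38, 12.83 and 13.46 in eGFP/Flag cells. No array came near those of the other group, and the difference was -7.86 ± 0.16 (adjusted p = 9.3e-14). The gene lay at percentile 98.7 of all genes with eGFP/Flag and at 21.1 with LSD2/eGFP/Flag, and the values carry no detection call, so the lower level has no order among dim genes and the size of the fall is uncertain. In the shRNA arrays it was 13.14, 13.18 and 12.97 with LSD2 shRNA, against 12.94, 13.02 and 13.02 with scramble shRNA. These overlapped, and the difference was 0.10 ± 0.16 (95% interval -0.24 to 0.44; adjusted p = 0.79). Its relative TMSB10 fell by 1.0 ± 0.10 in LSD2/eGFP/Flag cells (adjusted p = 1.5e-06), at 12.01 to 12.38, against 13.08 to 13.39 with eGFP/Flag. Of the filament-severing cofilin family, CFL1 fell by 0.31 (adjusted p = 3.7e-04) and DSTN, destrin, by 0.50 (adjusted p = 3.8e-05). PFN2, a profilin that loads monomers for elongation, rose by 0.58 (adjusted p = 7.9e-06), and CAPZB, a subunit of capping protein, rose by 0.26 (adjusted p = 0.012), a call lost with equal medians, with the mean of all probe sets and without replicate 1 of either vector group. GSN, gelsolin, a severing and capping protein, did not pass, at 0.36 ± 0.32. With LSD2 shRNA 0 of these 7 genes passed, beside 10.5% of all genes, and their differences were -0.31 to 0.10.

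All 3 genes of the Arp2/3 complex in the set fell in LSD2/eGFP/Flag cells, where 26.1% of all genes fell. ARPC1B was 10.41, 10.22 and 10.40 in LSD2/eGFP/Flag cells, against 11.81, 11.84 and 11.78 in eGFP/Flag cells. The overexpressing arrays were all lower, and the difference was -1.46 ± 0.07 (adjusted p = 1.0e-09). ARPC5 fell by 1.03 (adjusted p = 1.7e-08) and ARPC2 by 0.75 (adjusted p = 6.8e-07). The elongation factor VASP fell by 1.09 (adjusted p = 4.5e-07) and the formin DIAPH1, an effector of RhoA, by 0.71 (adjusted p = 1.4e-05). WASL, N-WASP, which switches on Arp2/3, did not pass, at 0.09 ± 0.13 (95% interval -0.18 to 0.37). With LSD2 shRNA 0 of the 6 passed, beside 10.5% of all genes, and their differences were -0.31 to 0.01.

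The linkers of actin to the membrane parted ways in LSD2/eGFP/Flag cells. MSN, moesin, was 10.04, 10.22 and 10.25 in LSD2/eGFP/Flag cells, against 12.70, 12.44 and 12.59 in eGFP/Flag cells. It was lower in all overexpressing arrays, and the difference was -2.40 ± 0.10 (adjusted p = 1.5e-10), a 5.29-fold fall. RDX, radixin, was 12.34, 12.48 and 12.39 in LSD2/eGFP/Flag cells, against 11.24, 11.36 and 11.22 in eGFP/Flag cells. It was higher in all of them, by 1.13 ± 0.07 (adjusted p = 1.3e-08). EZR, ezrin, fell by 0.68 (adjusted p = 5.6e-06). With LSD2 shRNA none of the 3 passed, beside 10.5% of all genes. MSN differed by 0.25 ± 0.10, RDX by -0.11 ± 0.07 and EZR by 0.03 ± 0.08.

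The small GTPases and kinases of the set also differed among themselves. RHOB, an immediate early gene, was 10.46, 9.92 and 9.97 in LSD2/eGFP/Flag cells, against 9.34, 8.94 and 9.56 in eGFP/Flag cells. The groups did not overlap, and the rise was 0.83 ± 0.20 (adjusted p = 0.0031). RHOC, known for its part in motility, fell by 1.10 (adjusted p = 4.8e-08), at 9.88 to 10.10 in LSD2/eGFP/Flag cells, against 10.98 to 11.20 in eGFP/Flag cells. RHOA, the main driver of stress fibers, did not pass, at -0.09 ± 0.07 (95% interval -0.23 to 0.05), although it passed as a fall of 0.23 with equal medians (adjusted p = 0.016). Of its kinases, ROCK2 fell by 0.59 (adjusted p = 3.0e-04), and ROCK1 did not pass, at 0.16 ± 0.09. LIMK2, the kinase through which ROCK silences cofilin, rose by 0.35 (adjusted p = 0.033), a call lost with equal medians, with cyclic loess, with the compared groups fitted alone, with array weights, and when replicate 3 of eGFP/Flag or any 1 replicate of LSD2/eGFP/Flag was left out. With LSD2 shRNA 0 of the 6 passed, beside 10.5% of all genes, and their differences were -0.22 to 0.25.

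Set side by side, 2 genes fell in both comparisons (MYL9 and MYO1C) and 3 had opposite calls (MYH10, MYO6 and MYO10). The knockdown calls of MYO6 and MYO10 were lost with the mean of all probe sets. TPM1 passed in the knockdown alone by its brightest probe set. Other probe sets of TPM1 passed with LSD2/eGFP/Flag in opposite directions, at -0.26 and 1.08. With LSD2/eGFP/Flag alone 31 genes passed, 22 of them lower. The other 9 passed in neither: MYLK, MYO1E, TPM2, CNN2, CALD1, GSN, WASL, RHOA and ROCK1. The test of the difference between the effects passed for 36 of the 46, 78.3% beside 50.4% of all genes. The overexpression effect was the higher one for 9 of them, 19.6% beside 28.0% of all genes, and the lower one for 27, 58.7% beside 22.4%. For 14 of the 46 genes the effects differed by at least 1 log2 unit and passed, beside 2363 of all 11963 genes, 19.8%.

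Other probe sets of the same genes were read where they existed, 45 of them for 26 genes. In the vector comparison 34 had the same call as the brightest, 7 lost a call, 4 gained one, and 0 had the opposite call. In the knockdown the numbers were 40, 3, 2 and 0. MYH10 and MYO1C each had a further probe set with the same calls, MYH10 at 2.52 and -1.98 and MYO1C at -0.98 and -0.69 with LSD2/eGFP/Flag and with LSD2 shRNA. All 4 probe sets of TPM1 fell with LSD2 shRNA, at -0.52, -0.63, -0.77 and -0.55, whereas with LSD2/eGFP/Flag they gave -0.15, -0.26, -0.14 and 1.08. The last of these rose (adjusted p = 6.1e-07) and the second fell (adjusted p = 0.0086), so that probe sets of 1 gene differed in direction. TPM1 is known to yield several tropomyosins by alternative splicing, and which of them each probe set reads was not resolved here. The rises of MYO10 and MYO6 with LSD2 shRNA rest on 1 probe set each: the other of MYO10 gave -0.01, and the others of MYO6 gave 0.02 and 0.09. ACTN1, by contrast, missed the threshold with its brightest probe set in the knockdown, at -0.19 (adjusted p = 0.066), while its others fell by 0.52 and 0.49. CALD1, at -0.10 with LSD2/eGFP/Flag, had 2 of 7 dimmer probe sets that fell, by 0.94 and 0.69.

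**Figure D4:**
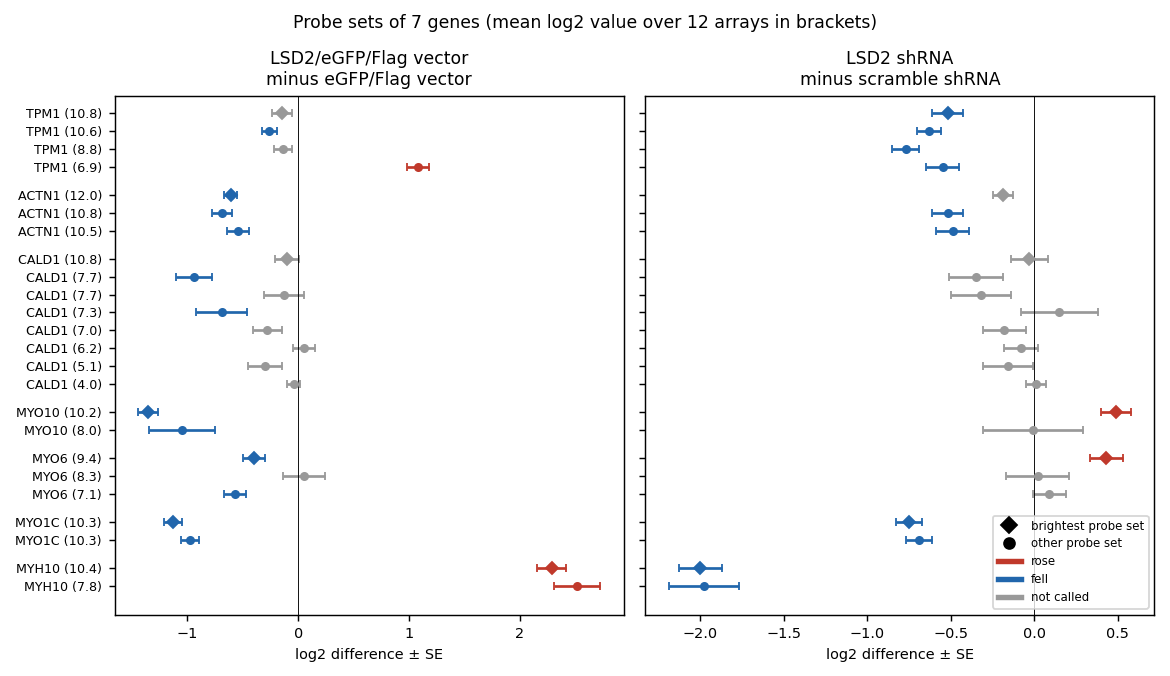
Log2 difference with SE (horizontal axis) for each probe set of 7 genes, for LSD2/eGFP/Flag minus eGFP/Flag (left) and LSD2 shRNA minus scramble shRNA (right), with a diamond for the brightest probe set, circles for the others and colour for the call. The probe sets of MYH10 lie together in both panels, while those of TPM1 run from -0.26 to 1.08 on the left and from -0.77 to -0.52 on the right.

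Beyond the list, 84 of 101 further genes of actin biology, in 6 lists, were measured. In LSD2/eGFP/Flag cells 41 of them fell and 26 rose, 79.8% in all beside 57.0% of all genes, with a median of -0.20. With LSD2 shRNA 7 fell and 5 rose, 14.3% beside 10.5%. Of the capping, severing and monomer genes 5 fell and 2 rose with LSD2 shRNA, 29.2%. In the other lists 0% to 14.3% passed there. In LSD2/eGFP/Flag cells these capping, severing and monomer genes had more falls than rises. There 17 of 24 were lower, 70.8% beside 26.1% of all genes, and 4 higher, 16.7% beside 30.9%. Among them, the capping protein CAPG fell by 4.79, supervillin, SVIL, by 2.65 and tropomodulin TMOD3 by 2.29. CAPG, at 5.77, and TMOD3, at 4.98, were low with LSD2/eGFP/Flag, so the sizes of their falls are uncertain.

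Of the formins and Ena/VASP genes, 6 of 10 rose in LSD2/eGFP/Flag cells, 60.0% beside 30.9% of all genes, and 3 fell, beside 26.1% of all genes. No difference between lists was tested. EVL rose by 1.80 and ENAH by 1.16, while their relative VASP, above, fell. The formin DAAM1 rose in both comparisons, by 1.30 with LSD2/eGFP/Flag and by 0.58 with LSD2 shRNA. Its levels in the shRNA arrays were low, at 5.73 with LSD2 shRNA, against 5.15 with scramble shRNA. Among the Arp2/3, WAVE and WASP genes 7 of 14 fell and 4 rose, with CYFIP2, a subunit of the WAVE complex, up by 2.37. Among the other myosins 5 of 14 fell and 3 rose, 57.1% in all, beside 57.0% of all genes, and so at the background. The light chain MYL12B fell by 1.15 with LSD2/eGFP/Flag and rose by 0.54 with LSD2 shRNA, whereas MYL9 fell in both. Of the other crosslinking and cortex genes 6 of 15 fell, 40.0% beside 26.1% of all genes, and 5 rose, 33.3% beside 30.9%. LCP1, a plastin, was at -3.54 and MARCKSL1 at 1.95. Synaptopodin, SYNPO, fell in both comparisons, at -1.48 with LSD2/eGFP/Flag, where its level was low at 5.84, and -0.59 with LSD2 shRNA. Of SRF and its cofactors 4 of 7 rose, 57.1% beside 30.9% of all genes, and 3 fell, 42.9% beside 26.1%, with LSD2/eGFP/Flag. The partner ELK3 fell by 2.48 with LSD2/eGFP/Flag and rose by 0.64 with LSD2 shRNA.

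**Figure D5:**
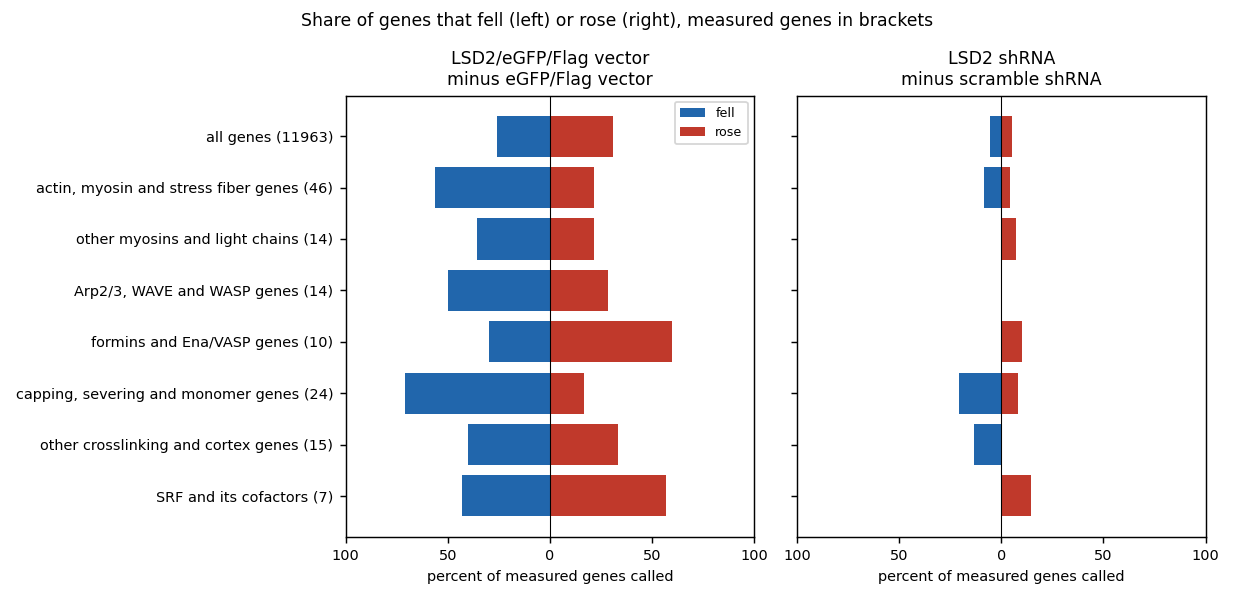
Percent of measured genes that fell (bars to the left) or rose (bars to the right) in each list, with the number measured in brackets, for LSD2/eGFP/Flag minus eGFP/Flag (left) and LSD2 shRNA minus scramble shRNA (right). In the left panel 56.5% of the actin, myosin and stress fiber genes fell and 21.7% rose, beside 26.1% and 30.9% of all genes.

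Markers of other cells were read beside these results. Of 27 measured muscle isoforms of the contractile apparatus, 4 rose and 5 fell with LSD2/eGFP/Flag, with a mean level of 5.55 to 5.61, against 5.59 to 5.71 with eGFP/Flag. In the knockdown 0 rose and 2 fell, with means of 5.50 to 5.57 with LSD2 shRNA, against 5.58 to 5.61 with scramble shRNA. Of 10 neuronal markers 6 rose and 2 fell with LSD2/eGFP/Flag, and their mean was 7.96 to 8.06, against 5.69 to 5.87 with eGFP/Flag. With LSD2 shRNA 0 of them passed. Of 9 blood markers 0 passed with LSD2/eGFP/Flag, and 1 rose and 1 fell with LSD2 shRNA. Of 10 luminal breast markers 3 rose and 3 fell with LSD2/eGFP/Flag, and 3 rose and 0 fell with LSD2 shRNA. Of all genes 57.0% passed with LSD2/eGFP/Flag and 10.5% with LSD2 shRNA. With LSD2/eGFP/Flag the luminal share, 60.0%, was thus near the background. There the neuronal share lay above it, and the muscle share, 33.3%, and the blood share lay below it. With LSD2 shRNA the luminal and blood shares lay above the background, on 10 and 9 genes, and the muscle and neuronal shares below it. These departures from the background were not tested. The part of the neuronal and MDA-MB-231 markers in the differences of the actin and myosin genes was not tested.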

How the data were processed

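Total RNA of 12 samples was measured on Affymetrix arrays, 3 for each of 4 groups. The deposited table holds log2 values of 22277 probe sets that the authors had made with RMA, per the submitters' processing notes. RMA corrects the background, equalises the distributions of arrays and sums up the probes of a set. The version of RMA is not given in the sources used here. Names came from the annotation of the platform (some of it old), updated through a RefSeq table (GRCh38.p14): 19064 named 1 gene, 1043 several and 2108 no listed gene, 62 were controls, and 19052 matched the table. Probe sets of 1 gene were kept, the brightest over 12 arrays where a gene had several (4310 genes), which left 11963 genes.

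Group means were fitted to the log2 values of all 12 arrays with limma 3.58.1 in R 4.3.3 (8 residual and 4.82 prior degrees of freedom, two-sided, Benjamini-Hochberg over all genes, called at an adjusted p under 0.05). Differences are given ± the standard error of the fit. The procedure was tested on simulated data. The number of arrays limits the precision.

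The listed genes, the pathway and marker lists and the rule for named genes were chosen with earlier results of these data known. Array values were given for genes called in both comparisons and, among called genes without overlap of the groups, for the 5 largest rises and 10 largest falls with LSD2/eGFP/Flag and the 6 largest of either direction with LSD2 shRNA. Other members were given by difference, and from each pathway list up to 3 called genes with the largest differences per comparison could be named. A pair of further gene lists is not reported here. Members with differing probe sets were chosen after their values were seen. Alternatives were a replicate block, the compared groups alone, cyclic loess, equal medians, the dimmest 25% of genes left out, the mean of all probe sets, other probe sets, weights for arrays, a trend with intensity, stricter thresholds and fits without each array in turn.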

Additional observations from a re-analysis of the deposited data

How the results depend on the processing

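The limits are 3 arrays a group, stable lines that may each be a single clone, values without detection calls, and a separate normalization, by all appearance, of the shRNA and the vector arrays. With LSD2 shRNA, 6 genes of the set passed as reported, 10 of 43 (23.3%, beside 15.1% of the remaining genes) with the dimmest genes left out, 14 with array weights and 2 at a difference of at least 1 log2 unit. Over all genes the count was 1260 as reported, 2350 with array weights, 564 at an adjusted p under 0.01 and 63 at 1 log2 unit or more. Leaving out 1 array gave 5 to 8 genes of the set and 752 to 1347 of all genes, and for all genes it was 752 when scramble replicate 1, 774 when LSD2 shRNA replicate 1 and 832 when scramble replicate 2 was left out. With LSD2/eGFP/Flag, 36 genes of the set passed as reported and 16 at 1 log2 unit or more, and of all genes 6824 and 2184. Leaving out 1 array gave 33 to 36 and 6411 to 6818. For the difference between the effects 36 passed as reported, 14 at 1 log2 unit or more and 34 to 37 without 1 array. Of the calls, 5 of 6 in the knockdown and 32 of 36 with LSD2/eGFP/Flag held in all 12 fits without 1 array, the exceptions being MYO6, and ACTA2, CNN1, CAPZB and LIMK2. With the mean of all probe sets MYO6 and MYO10 no longer passed in the knockdown, nor CAPZB with LSD2/eGFP/Flag. Where either value passed the test, a dimmer probe set turned the sign in the knockdown for MYO10, at -0.01, and with LSD2/eGFP/Flag for MYO6, at 0.05, TPM1, at 1.08, CAPZB, at -0.20, and DIAPH1, at 0.05; of these, the probe set of TPM1 alone passed the test. Further sign turns lay between values that both did not pass. The cause of these changes was not tested.

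Replicates share numbers in the labels. Deviations from the group means correlated between same-numbered arrays at 0.020, 0.508 and 0.446 in the shRNA arrays and at -0.142, 0.175 and 0.182 in the vector arrays. Between arrays of unlike number they correlated at -0.482 to 0.072 in the shRNA arrays and at -0.243 to 0.101 in the vector arrays. Replicates 2 and 3 of the shRNA arrays thus shared deviations by number. The main fit did not take the numbers as pairs, and a fit with a replicate block was made beside it. With the replicate block 6 genes of the set passed in the knockdown, 36 with LSD2/eGFP/Flag and 34 for the difference between the effects. Of all genes 1071 passed in the knockdown, in place of 1260, and 6691 with LSD2/eGFP/Flag, in place of 6824. The genes of the set called in the knockdown and in the vector comparison were the same as without the block.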
